A study of Homo sapiens with 24 samples.

Results

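SU-DHL-4 cells exposed to the SYK inhibitor Entospletinib (Ento) alone were compared with cells of the same line exposed to the solvent DMSO. The comparison rests on 3 arrays per group, 6 of the 24 arrays of the series, and was read over all 25575 rows of the table, which carry 25161 gene symbols. SU-DHL-4 is a cell line from a human diffuse large B-cell lymphoma, cultured here with 1 µM Ento or with DMSO for 72 h. The line was also exposed to 0.01 µM of the BET inhibitor AZD5153 (AZD) or to both compounds (Ento+AZD), and the Burkitt lymphoma line DG-75 received the same 4 treatments. RNA was hybridised to Clariom D human arrays as biological triplicates. Values are log2 expression, and a change is the difference of 2 log2 values with its standard error (SE).

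SYK is a tyrosine kinase that binds the phosphorylated CD79A and CD79B chains of the B-cell receptor and passes the signal to the adaptor BLNK, to BTK and PLCG2, and to the PI3K pathway. In B cells these branches control early response genes, calcium and NF-kB signalling, and the export of FOXO transcription factors from the nucleus. Germinal centre B cells are held in their state by BCL6, BACH2 and PAX5, whereas PRDM1, IRF4 and XBP1 direct the change to antibody-secreting plasma cells.

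All 10 B-cell markers checked and all 8 germinal centre markers lay above the median of the table under DMSO and under Ento. Of the T and NK cell markers 3 of 11 did, and of the monocyte and macrophage markers 1 of 9. The defining T-cell gene CD3E stood at 3.80 to 4.72 under DMSO and the monocyte gene LYZ at 2.43 to 2.95. The mean log2 level of the B-cell markers was 9.40 to 9.71 in the DMSO arrays and 9.66 to 9.93 in the Ento arrays. That of the T and NK cell markers was 3.82 to 3.91 and 3.69 to 3.77. Of the epithelial and fibroblast markers 6 of 11 lay above the median under DMSO and 5 under Ento, DCN among them. A level on an array also depends on the probes, so that these positions are a rough check of the label. The array medians were 5.05 to 5.13 under DMSO and 4.91 to 5.02 under Ento. Replicate arrays correlated at 0.985 to 0.991 across rows, and the median SD of a row between replicates was 0.18 under DMSO and 0.21 under Ento. The number of arrays limits the precision. The median half-width of the 95% interval of a change was 0.39 on the log2 scale. In bulk RNA, fewer cells with a transcript and less of it per cell cannot be told apart.

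Ento changed few transcripts past the threshold, an adjusted limma p under 0.05 with a fold change above 2. Of 25575 rows, 13 were called (0.0508%), 10 higher (0.0391%) and 3 lower (0.0117%). The higher genes reported here were TMPRSS15, BACH2, LPP, ABCA6, TRPC6, LINC01781, LTB, CEACAM1 and IGLL5, and the lower genes were SPARCL1, C1orf54 and DENND1B. All 12 differed in the same direction in each of the 3 same-numbered pairs of arrays, and none overlapped between the groups. Over the whole table, 4.05% of rows had every Ento array above every DMSO array and 9.33% had every Ento array below. In a model without the replicate number, 1 gene was called, and none of these 12. The scaling also shifted the balance of the calls. It was 76.9% higher as deposited, 88.2% with each array's median subtracted (15 of 17) and 100% after quantile normalization (7 of 7).

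The B-cell regulator BACH2, a transcriptional repressor that restrains plasma cell differentiation, measured 7.51, 8.23 and 7.48 in the DMSO arrays and 8.98, 9.32 and 8.89 in the Ento arrays. The lowest Ento array lay above the highest DMSO array. The change was 1.32 (2.5-fold, SE 0.152, adjusted p = 0.00936). LPP, a LIM domain protein of focal adhesions, measured 7.92, 8.73 and 8.22 under DMSO and 9.64, 9.90 and 9.63 under Ento. Here too the groups were well apart, and the change was 1.44 (2.71-fold, SE 0.168, adjusted p = 0.00936).

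TMPRSS15, the gut protease enteropeptidase that activates trypsinogen, had the largest change of the called genes reported here. Its levels were 2.71, 3.13 and 1.98 under DMSO and 5.11, 4.98 and 3.95 under Ento, a change of 2.07 (4.2-fold, SE 0.175, adjusted p = 0.000502). Replicate 3 was the lowest array in both groups. The files give no detection value, so whether the DMSO level stands for expression could not be read from them. LINC01781, a long non-coding RNA, measured 3.19, 2.96 and 2.89 under DMSO and 4.33, 4.28 and 4.08 under Ento, without overlap (change 1.21, SE 0.174, adjusted p = 0.0327). The same limit holds for its DMSO level.

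Of the other higher genes, ABCA6, an ATP-binding cassette transporter, stood at 4.68, 5.37 and 4.75 under DMSO and 6.42, 6.93 and 6.43 under Ento (change 1.66, SE 0.219, adjusted p = 0.0259). The cation channel gene TRPC6 stood at 5.41, 5.55 and 4.34 and at 6.94, 6.90 and 6.41 (change 1.65, SE 0.236, adjusted p = 0.0327). In both genes the gap between the groups was wider than the range of the Ento arrays. CEACAM1, an adhesion receptor with an inhibitory cytoplasmic tail, measured 6.70, 6.53 and 5.57 under DMSO and 7.54, 7.70 and 6.98 under Ento. The highest DMSO array and the lowest Ento array lay close together, and the same-numbered differences were 0.83, 1.17 and 1.40 (change 1.14, SE 0.170, adjusted p = 0.0413). LTB encodes lymphotoxin beta, a TNF family cytokine of lymphocytes. It measured 6.38, 6.99 and 6.55 under DMSO and 7.45, 8.0 and 7.52 under Ento (change 1.02, SE 0.151, adjusted p = 0.0413). IGLL5 measured 6.41, 6.87 and 5.27 under DMSO and 7.99, 7.83 and 7.39 under Ento (change 1.55, SE 0.240, adjusted p = 0.0487). The gene lies in the immunoglobulin lambda locus and shares exons with a lambda chain segment, so that its signal cannot be separated from lambda transcripts.

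Of the 3 lower genes, SPARCL1, a secreted matricellular protein, fell from 3.56, 3.47 and 3.86 to 2.54, 2.48 and 2.82, a change of -1.02 (SE 0.136, adjusted p = 0.0259). Every Ento array lay below every DMSO array by more than the spread within a group. Its DMSO level lay at percentile 29.5 of the rows, and without a detection value it could not be read as expression. DENND1B, a guanine nucleotide exchange factor for Rab GTPases, measured 4.71, 4.35 and 5.52 under DMSO and 3.24, 2.66 and 3.82 under Ento (change -1.62, SE 0.231, adjusted p = 0.0327). C1orf54 measured 6.62, 6.03 and 5.50 under DMSO and 5.41, 4.64 and 4.59 under Ento (change -1.17, SE 0.166, adjusted p = 0.0327). For C1orf54 the groups came within 0.1 of each other, at DMSO replicate 3 and Ento replicate 1.

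**Figure D1:**
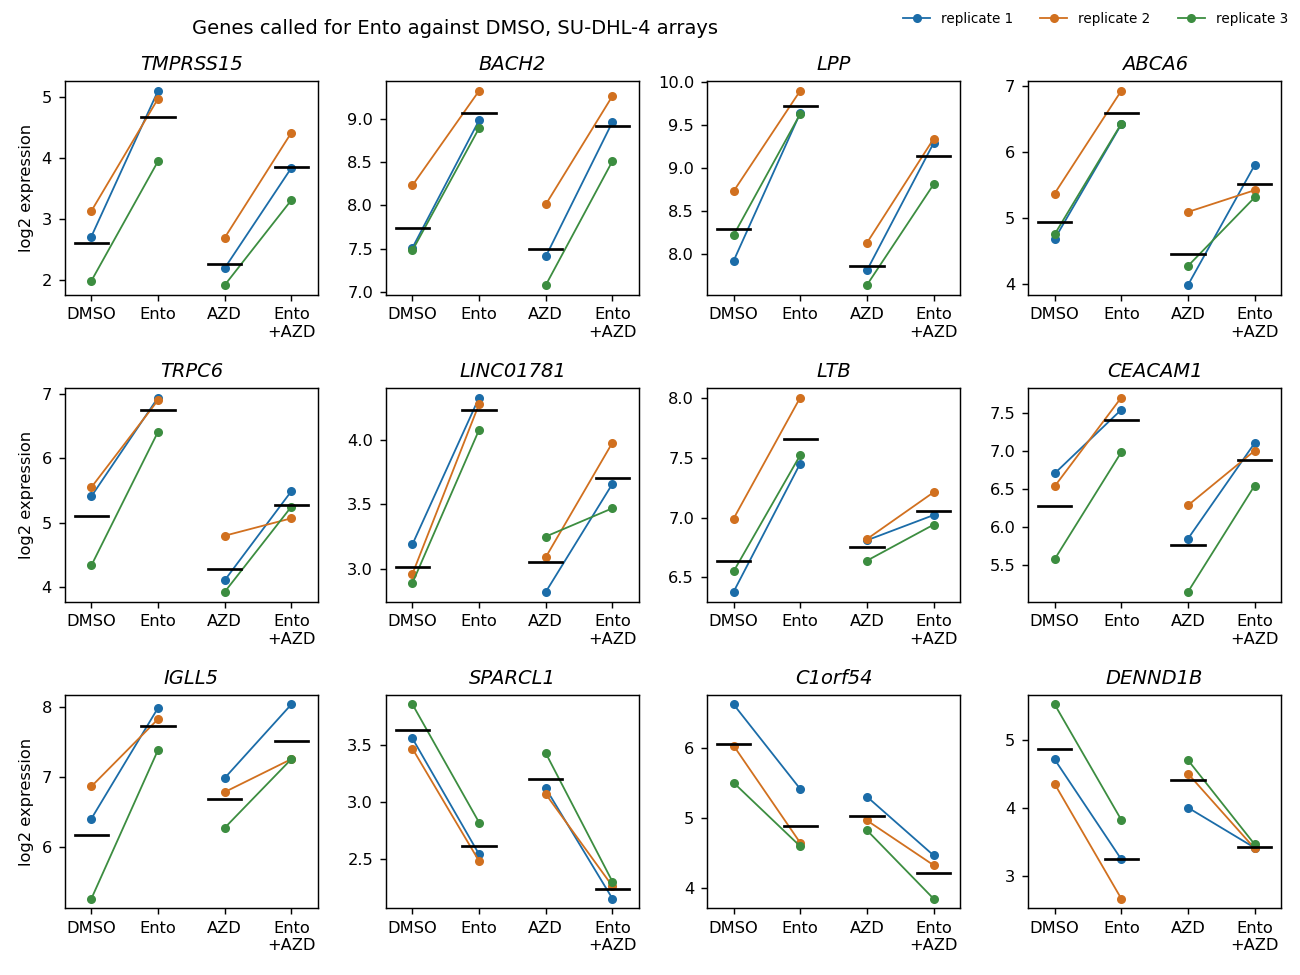
Log2 expression (y axis) of the 12 called genes reported here in each SU-DHL-4 array, with lines joining same-numbered arrays and black bars at the mean of 3. In the DMSO and Ento columns the 9 upper genes have every Ento point above every DMSO point, and SPARCL1, C1orf54 and DENND1B have every Ento point below.

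The count of called rows fell with each omission, which also left fewer arrays in the fit. It was 2 to 7 when 1 of the 6 arrays or 1 replicate number was left out. TMPRSS15 was called in 9 of these 9 fits, with changes of 1.86 to 2.18. BACH2 was called in 2 of 9, without DMSO replicate 2 (adjusted p = 0.0401) and without Ento replicate 2 (adjusted p = 0.0298), and IGLL5 in 2 of 9, without DMSO replicate 2 (adjusted p = 0.0117) and without replicate number 2 (adjusted p = 0.0474). LPP was called in 1 of 9, without DMSO replicate 2 (adjusted p = 0.0383), and the other 8 genes in none. The changes kept their sign in each of the 9 fits. They ran from 1.22 to 1.44 for BACH2, 1.25 to 1.57 for LPP, 1.39 to 1.79 for TRPC6, -1.79 to -1.40 for DENND1B and -1.06 to -0.98 for SPARCL1. The widest range was that of IGLL5, from 1.26 without DMSO replicate 3 to 1.90 without DMSO replicate 2.

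**Figure D2:**
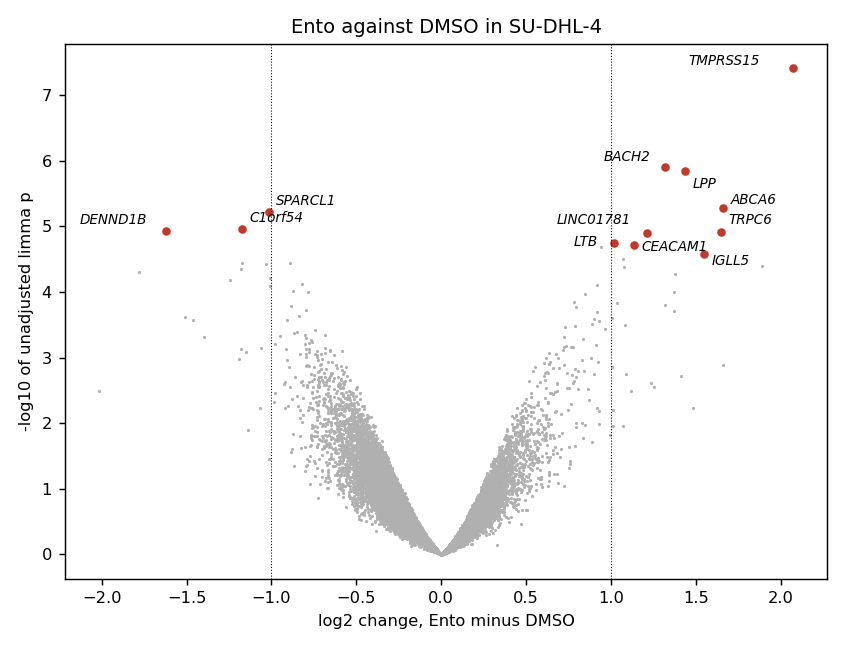
Change on the log2 scale (x axis, Ento minus DMSO) against -log10 of the unadjusted limma p (y axis) for the rows of the table reported here, with the 12 called genes in red and dotted lines at a change of 1 in either direction. More rows lie to the left of 0 than to the right, while 9 of the 12 red points lie to the right.

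Below the threshold, more rows stood lower than higher. At an unadjusted p under 0.05 there were 2196 rows (8.59%), beside 1279 expected if no row differed. Of these 588 were higher (2.3%) and 1608 lower (6.29%). The median change over all rows was -0.06. This imbalance depended on the scaling. After quantile normalization 1167 rows were higher and 1028 lower, and after subtraction of array medians, which moved the median change to 0.05, 1852 were higher and 645 lower. Changes of single genes are therefore read beside the median of all rows.

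Several genes fell just short of the adjusted threshold. AFF3, a nuclear protein of the AF4 family expressed in B cells, measured 7.86, 8.18 and 7.46 under DMSO and 8.80, 9.32 and 8.60 under Ento, with no overlap (change 1.07, adjusted p = 0.0534). CD69, a receptor that retains lymphocytes in tissue and serves as an activation marker, measured 4.30, 4.71 and 4.46 and then 6.19, 6.13 and 5.28, again with no overlap (change 1.37, adjusted p = 0.0834). On the lower side, RRAGD, a Rag GTPase of the lysosomal mTORC1 machinery, measured 6.61, 6.21 and 6.57 and then 5.34, 5.15 and 5.37. Its groups were far apart, with a change of -1.18 (adjusted p = 0.0536). S100A4, a calcium-binding protein, changed by -1.18 (adjusted p = 0.0549), and SORT1, a sorting receptor of the Golgi, by -1.24 (adjusted p = 0.0684). The cyclin-dependent kinase inhibitor CDKN1B measured 6.72, 5.58 and 7.0 under DMSO and 6.07, 4.18 and 6.03 under Ento. Its groups overlapped because replicate 2 was low in both, while each same-numbered pair fell (change -1.01, adjusted p = 0.0738). LRRTM4-AS1 changed by -1.78 (adjusted p = 0.0577) and ANKRD30B by -1.01 (adjusted p = 0.0644). UBE2Q2P2 changed by -1.03 (adjusted p = 0.0536). It has near-identical family copies, and its probes may not separate them.

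Promoter sequence is shown for the called genes, grouped by the direction of change that they were chosen by. The FOXO motif was searched because FOXO factors are regulated downstream of SYK through PI3K. RefSeq windows of 300 bases, from 250 before to 50 after an annotated start (GRCh38.p14), were matched by symbol for 11 of the 12 genes, all but IGLL5. The FOXO motif GTAAACA, searched on both strands, was present for 4 of the 8 higher genes with a window and for 0 of the 3 lower genes. Among the genes called when the Ento effect was averaged over arrays without and with AZD, a set that shares genes with this one, it was present for 5 of 17 with a window (29.4%). It was present for 3.91% of the 17249 array genes with a window and in 3.42% of 35116 windows. A gene counted when any of its windows held the motif. LPP had 7 windows, 1 of which held the motif. The 250 bases before the start of the 4 genes with a match follow, and those of BACH2, which had no match, for comparison. All are written 5′ to 3′ on the strand of the gene, and capitals mark the motif or its reverse complement.
TMPRSS15, chr21:18403786-18404035, minus strand: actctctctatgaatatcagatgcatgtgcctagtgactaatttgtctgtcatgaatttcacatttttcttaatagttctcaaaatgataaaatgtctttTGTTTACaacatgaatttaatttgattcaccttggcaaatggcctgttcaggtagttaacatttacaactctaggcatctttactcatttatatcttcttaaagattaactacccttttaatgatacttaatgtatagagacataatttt
ABCA6, chr17:69141896-69142145, minus strand: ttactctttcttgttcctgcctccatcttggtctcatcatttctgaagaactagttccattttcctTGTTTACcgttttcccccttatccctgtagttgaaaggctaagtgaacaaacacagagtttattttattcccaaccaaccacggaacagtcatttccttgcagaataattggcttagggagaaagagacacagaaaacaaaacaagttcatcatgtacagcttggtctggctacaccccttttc
LTB, chr6:31582426-31582675, minus strand: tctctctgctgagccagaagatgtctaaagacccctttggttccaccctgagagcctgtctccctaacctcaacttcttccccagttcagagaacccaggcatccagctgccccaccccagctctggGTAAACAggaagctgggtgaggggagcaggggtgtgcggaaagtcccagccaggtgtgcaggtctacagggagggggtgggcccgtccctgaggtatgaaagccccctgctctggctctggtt
LPP, chr3:188212462-188212711, plus strand: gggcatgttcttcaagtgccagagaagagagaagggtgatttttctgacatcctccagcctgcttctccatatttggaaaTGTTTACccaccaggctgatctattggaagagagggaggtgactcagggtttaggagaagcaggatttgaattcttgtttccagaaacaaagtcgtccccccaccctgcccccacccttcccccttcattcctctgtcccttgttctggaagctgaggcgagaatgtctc
BACH2, chr6:90296844-90297093, minus strand: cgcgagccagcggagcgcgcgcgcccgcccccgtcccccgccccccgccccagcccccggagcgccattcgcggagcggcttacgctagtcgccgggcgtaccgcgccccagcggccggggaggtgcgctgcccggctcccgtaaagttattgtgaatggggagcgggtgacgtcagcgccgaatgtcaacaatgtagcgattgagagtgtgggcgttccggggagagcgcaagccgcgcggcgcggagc

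Neither the EGR motif GCGTGGGCG nor the E-box CACGTG was found for the 8 higher genes, against 1.32% and 10.3% of the array genes with a window. At these shares 8 genes would often hold none, so both absences say little. The EGR and E-box motifs share the letters CGTG, and neither shares them with the FOXO motif. A match describes these letters only. With 8 genes chosen by their change, the share is a description without a test.

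The same exposure was measured a second time in SU-DHL-4, on a background of AZD. Ento+AZD against AZD shares no array with Ento against DMSO, although both were taken from 1 fit with a common estimate of the spread. In it 7 rows were called (0.0274%), 1 with no replicate block and 0 to 22 when arrays or replicate numbers were left out. All 13 called rows had the same sign there, against 55.1% of all rows, and 12 of 13 had an unadjusted p under 0.05, against 7.03% of all rows. TMPRSS15 measured 2.19, 2.69 and 1.91 under AZD and 3.84, 4.42 and 3.31 under Ento+AZD, with no overlap (change 1.59, adjusted p = 0.00632). BACH2 measured 7.41, 8.01 and 7.08 and then 8.96, 9.26 and 8.51, also without overlap (change 1.41, adjusted p = 0.00632). LPP changed by 1.29 (adjusted p = 0.0241) and SPARCL1 by -0.97 (adjusted p = 0.0314). CEACAM1 changed by 1.13 (adjusted p = 0.0588), and ABCA6, TRPC6, IGLL5, C1orf54, DENND1B and LINC01781 had adjusted p-values between 0.255 and 0.526. LTB was the exception, at 6.81, 6.82 and 6.64 under AZD and 7.02, 7.21 and 6.94 under Ento+AZD. Its change was 0.30 (adjusted p = 0.754). Whether the LTB response differed between the backgrounds was not tested.

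**Figure D3:**
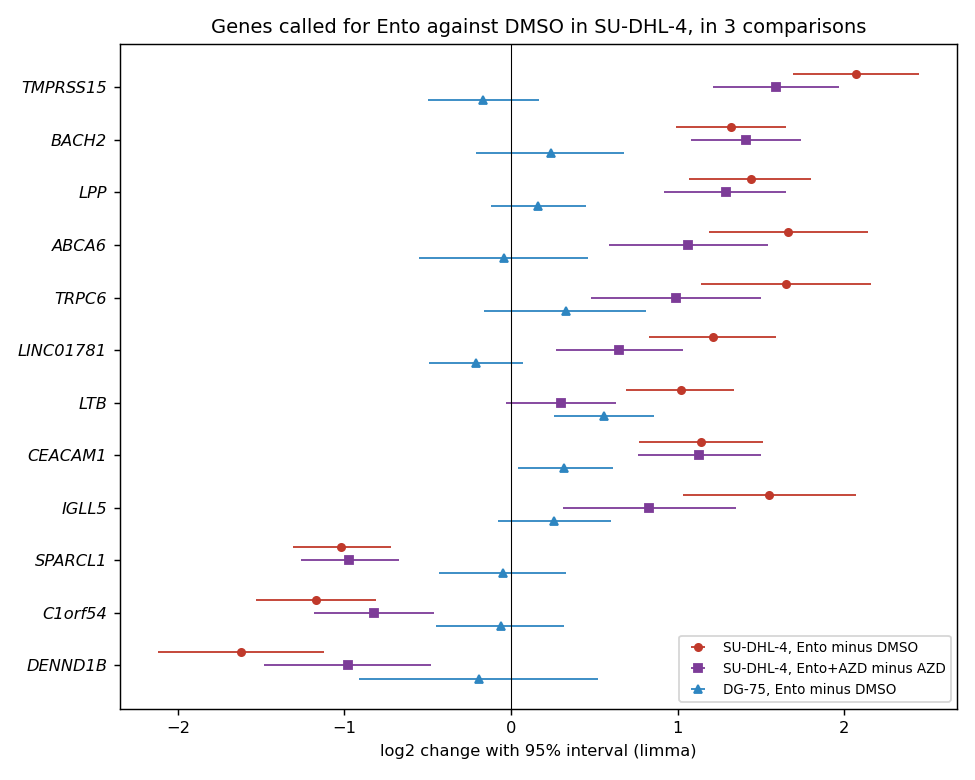
Change on the log2 scale (x axis) with its 95% limma interval for the 12 called genes (y axis), for Ento minus DMSO in SU-DHL-4 (circles), Ento+AZD minus AZD in SU-DHL-4 (squares) and Ento minus DMSO in DG-75 (triangles). The squares lie on the same side of 0 as the circles for all 12 genes, and 10 of the 12 triangles have intervals that cross 0, all but LTB and CEACAM1.

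Averaging both backgrounds set 6 arrays with Ento against 6 without and called 22 rows (0.086%), 17 higher (0.0665%) and 5 lower (0.0196%). Since the average holds the arrays of Ento against DMSO, it is no independent check of the genes above. Of the 22, 9 were also called for Ento against DMSO and 13 were not, and 4 genes called there fell under a 2-fold change in the average. These 4 were SPARCL1 (-0.99), C1orf54 (-1.0 when rounded), LINC01781 (0.93) and LTB (0.66). AFF3, higher by 1.14 on average (SE 0.119, adjusted p = 0.00188), also measured 7.34, 8.55 and 7.33 under AZD and 8.84, 9.44 and 8.57 under Ento+AZD. CD69 was higher by 1.16 (adjusted p = 0.0184). Among the lower genes, SLAMF1, a lymphocyte receptor of the SLAM family, measured 3.73, 4.06 and 3.75 under DMSO, 2.90, 3.02 and 3.16 under Ento, 4.29, 4.18 and 5.23 under AZD and 3.01, 2.87 and 3.08 under Ento+AZD. No array with Ento reached an array without it (average change -1.20, SE 0.151, adjusted p = 0.00627). JAM2, a junctional adhesion molecule, was lower by an average change of -1.18 (adjusted p = 0.0483), and SLC8A1, a sodium and calcium exchanger, by -1.15 (adjusted p = 0.0341). LRRTM4-AS1 had an average change of -1.22 (adjusted p = 0.0403), with same-numbered differences of 0.00, -1.66 and -0.29 on the AZD background. The remaining genes called for the average alone are named after their values were seen. They were the zinc transporter SLC30A4 (1.45, adjusted p = 0.00476), the cytosolic DNA sensor AIM2 (1.02, adjusted p = 0.0133), SDR16C5 (1.12), LINC01054 (1.07), PLEKHG7 (1.40), COBLL1 (1.46) and RASSF6 (1.42, adjusted p = 0.05 when rounded). The Ento and DMSO arrays overlapped for SDR16C5 and RASSF6. PLEKHG7, which has 2 rows, stood at 5.33, 7.15 and 4.79 under Ento in the row with the higher mean. COBLL1 had same-numbered differences of 2.62, 0.46 and 2.68 on the AZD background.

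The target and its partners in the receptor pathway stayed within small changes. SYK itself measured 9.06, 9.18 and 8.66 under DMSO and 9.43, 9.54 and 9.23 under Ento, with no overlap. The change was 0.43 (SE 0.137, adjusted p = 0.449). An inhibitor of kinase activity need not change the transcript, so this value is no check of the label. Of 38 proximal signalling genes none was called, and at the 0.0508% of all rows that were, a list of this length would seldom hold one. At an unadjusted p under 0.05, 6 were higher and 2 lower, beside 2.3% and 6.29% of all rows, so that the lower count was near the share of all rows. The median change was 0.06, beside -0.06 for all rows. With array medians subtracted 10 were higher and 1 lower, with a median of 0.17, beside 1852 and 645 of all 25575 rows and a median of 0.05. The 6 included SYK, the receptor chain CD79B (0.42), the adaptor BLNK (0.33), the exchange factor VAV1 (0.32) and the kinase BLK (0.29). The 2 were VAV3 (-0.53) and PTPN6 (-0.46), which encodes the inhibitory phosphatase SHP-1. BTK measured 9.53, 9.75 and 9.51 under DMSO and 9.64, 9.71 and 9.51 under Ento. The 95% interval of its change ran from -0.32 to 0.36.

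Of 39 genes that respond early to receptor signalling none was called, which at the same 0.0508% says little of the list. At an unadjusted p under 0.05 there were 1 higher and 5 lower members, beside 2.3% and 6.29% of all rows. CD69 was the higher one. The 5 lower members were the signalling adaptor TRAF1 (-0.63), the chemokine CCL3 (-0.55), the survival gene BCL2A1 (-0.53), SPRED1, an inhibitor of the RAS pathway (-0.41), and IER2 (-0.35). The median was -0.11, and 0.01 with array medians subtracted. At that p, 3 were then higher and 3 lower, beside 1852 and 645 of all 25575 rows. After quantile normalization 3 were higher and 5 lower, beside 1167 and 1028 of all rows. EGR1, an immediate early transcription factor, measured 6.06, 6.19 and 6.61 under DMSO and 6.41, 6.17 and 5.45 under Ento, with 1 pair higher and the other two lower. MYC measured 9.34, 9.55 and 9.35 and then 9.38, 9.48 and 9.39, a change of 0.00 with a 95% interval of -0.30 to 0.30. The groups overlapped for both genes. Of 25 growth and nucleolar genes linked to MYC, 1 was higher (DKC1, 0.42) and none lower at that p, and 4 were higher with array medians subtracted, beside 1852 of all 25575 rows.

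Regulators of the germinal centre and plasma cell states were higher more often than lower. Of 32 measured, 1 was called (BACH2), beside 0.0508% of all rows. At an unadjusted p under 0.05, 10 were higher and 1 was lower, beside 2.3% and 6.29% of all rows. The median was 0.13, beside -0.06 for all rows. At that p, subtraction of array medians gave 14 higher and 0 lower (1852 and 645 of all 25575 rows). Quantile normalization gave 10 and 1 (1167 and 1028 of all rows). Besides BACH2, the migration receptor GPR183 (EBI2) measured 3.48, 3.68 and 3.69 under DMSO and 5.52, 5.37 and 4.94 under Ento. These groups were well apart. The gene also varied under AZD (2.97, 4.55 and 3.68), and the fit gave a change of 1.66 (SE 0.401, adjusted p = 0.286). In a fit of the 6 Ento and DMSO arrays alone the gene was called, with an adjusted p of 0.0221, and it was not called in the other alternatives, where the adjusted p reached 1. The plasma cell factor XBP1 measured 5.38, 4.98 and 4.43 and then 6.22, 5.91 and 5.14, with overlapping groups and each pair higher (change 0.83, adjusted p = 0.27). The other higher members were FOXP1 (0.49), SPIB (0.39), CXCR5 (0.38), POU2AF1 (0.37), IRF8 (0.31), PAX5 (0.31) and the migration receptor S1PR2 (0.31). The lower member was PRDM1, the plasma cell regulator Blimp-1, at 2.57, 2.12 and 2.94 under DMSO and 1.65, 2.03 and 2.31 under Ento, with overlapping groups (change -0.55, adjusted p = 0.482). These levels lay within or under the range given above for the monocyte gene LYZ, so whether they stand for expression could not be read. BCL6 measured 11.61, 11.89 and 11.76 and then 11.77, 11.94 and 11.77, with a 95% interval of its change from -0.23 to 0.38. IRF4 changed by -0.23 with an interval from -0.68 to 0.22.

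B-cell identity markers stood slightly higher as a list. Of 10, 9 had a change above 0, beside 9606 of the 25575 rows, 5 were higher at an unadjusted p under 0.05 and none was lower, with a median of 0.31. The median was 0.32 after quantile normalization and 0.43 with array medians subtracted. CD79B, PAX5, BLNK and POU2AF1 were among those 5 and are also members of the lists above. The 12 MHC class II genes, which present antigen to helper T cells, all had changes above 0 with a median of 0.15. In none of them did all Ento arrays lie above all DMSO arrays, which at 4.05% of all rows says little of a list this short. Among them 1, HLA-DOB (0.46), had an unadjusted p under 0.05, and none was called. With array medians subtracted 4 were higher at that p, with a median of 0.27, beside 1852 of all 25575 rows. Of 18 migration and adhesion receptors, 6 were higher and 1 lower at that p, beside 2.3% and 6.29% of all rows. The list was otherwise balanced, with 9 members above 0 and 9 below and a median of 0.04. Those past that p included GPR183, CD69, CXCR4 (0.60), CXCR5 and S1PR2 on the higher side and CD44 (-0.46) on the lower side. CXCR4, the receptor that holds cells in the dark zone of the germinal centre, measured 9.70, 9.34 and 9.78 under DMSO and 10.54, 9.74 and 10.34 under Ento. Its groups overlapped by Ento replicate 2.

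Of 32 genes tied to FOXO factors and PI3K, 2 were higher and 2 lower at an unadjusted p under 0.05, with a median of 0.03. The shares of all rows were 2.3% and 6.29%, and the lower count was close to its share. PIK3IP1, an inhibitor of PI3K (0.32), was among the higher members and CDKN1B among the lower. FOXO1 measured 7.57, 7.81 and 7.75 under DMSO and 7.95, 8.15 and 7.86 under Ento, without overlap (change 0.28, SE 0.153, adjusted p = 0.646). The count was sensitive to scaling and became 8 higher and 1 lower with array medians subtracted, where 1852 and 645 of the 25575 rows were. Of 7 surrogate light chain and recombination genes, IGLL5 was the called member, beside 0.0508% of all rows, and VPREB3 changed by 0.26. The other 5 lay between -0.31 and 0.07. Of 16 BCL2 family genes, BCL2A1 was the 1 past that p. BCL2 changed by 0.15 and the pro-apoptotic gene BCL2L11 (BIM) by 0.33 (adjusted p = 0.598). None of 22 sterol synthesis genes passed it, and with array medians subtracted 3 were higher at that p, beside 1852 of all 25575 rows.

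**Figure D4:**
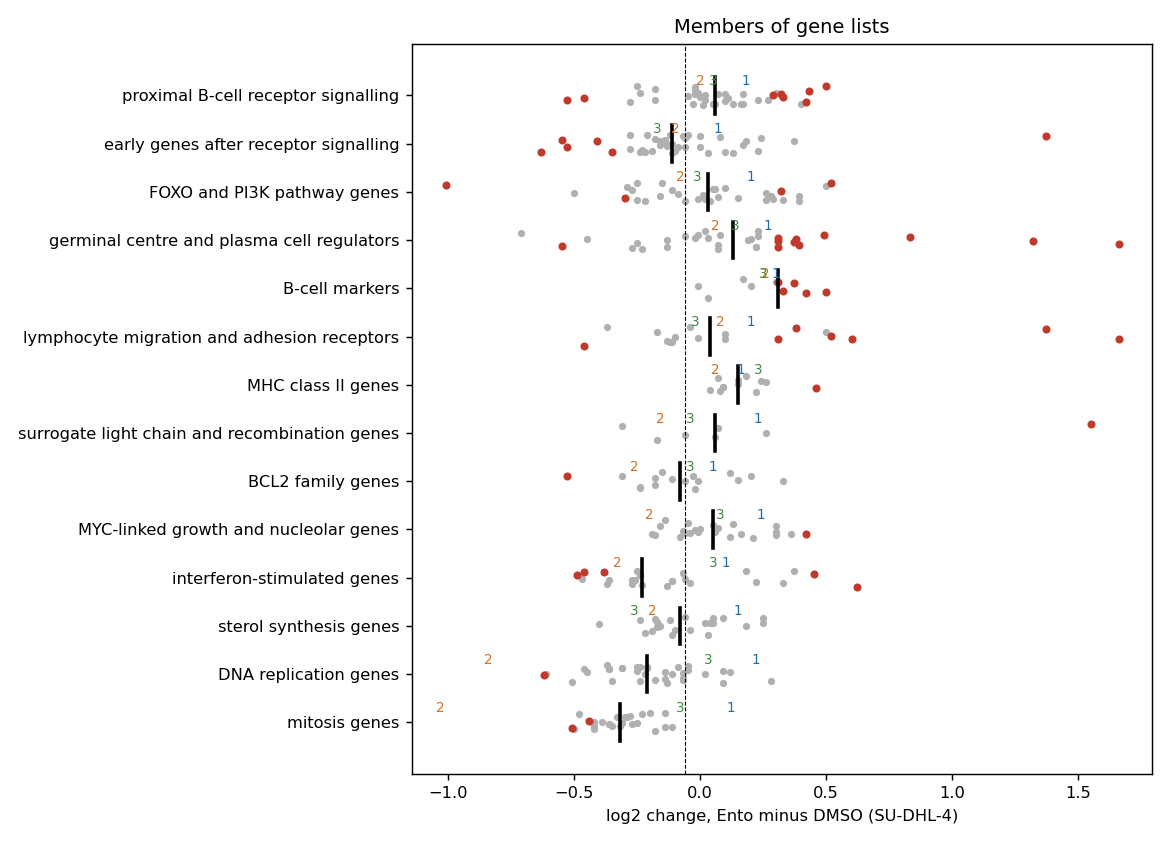
Change on the log2 scale (x axis, Ento minus DMSO) of every measured member of 14 gene lists (y axis), red where the unadjusted limma p is under 0.05. Black bars are list medians, digits 1 to 3 the medians of the same-numbered differences, and the dashed line the median of all rows, and the digit 2 lies far to the left for DNA replication and mitosis.

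Cell-cycle genes depended on single arrays, replicate 2 above all. Of 34 DNA replication genes, 0 were higher and 1 lower (CDT1, a replication licensing factor, -0.62) at an unadjusted p under 0.05, with a median of -0.21. Of 25 mitosis genes all had changes below 0, 2 of them past that p (the kinesin CENPE, -0.51, and the kinase AURKA, -0.44), with a median of -0.32. Both counts lay near or under the 6.29% of all rows that were lower at that p. The mean level of the mitosis genes was 9.29, 9.13 and 9.64 in DMSO replicates 1 to 3 and 9.43, 8.11 and 9.56 in the Ento replicates. That of the replication genes was 8.0, 8.19 and 8.63 and then 8.27, 7.34 and 8.60. Ento replicate 2 was the low array in both lists, while Ento replicates 1 and 3 lay within the range of the DMSO arrays. The medians of the same-numbered differences were 0.12, -1.03 and -0.08 for mitosis and 0.22, -0.84 and 0.03 for replication. Without Ento replicate 2, an omission singled out after seeing the data, the list medians were -0.16 for mitosis and -0.01 for replication. Without DMSO replicate 2 they moved further, to -0.03 and 0.08, and without replicate number 2 in any group they were 0.01 and 0.16. Without DMSO replicate 1 both lists lay lower, with medians of -0.50 and -0.36 and with 9 of 25 mitosis and 5 of 34 replication genes lower at that p, beside 1656 of all 25575 rows. The medians were -0.43 and -0.29 without Ento replicate 1, and -0.56 and -0.40 without replicate number 1 in any group. On the AZD background both lists were lower with Ento in each of the 3 pairs. The mitosis genes measured 8.73, 8.07 and 8.87 under AZD and 8.53, 7.07 and 8.70 under Ento+AZD, and the replication genes 7.58, 7.38 and 7.96 and then 7.33, 6.24 and 7.64. There 21 of 34 replication genes (median -0.61) and 9 of 25 mitosis genes (median -0.49) were lower at an unadjusted p under 0.05, beside 3.63% of all rows. Replicate 2 was the lowest array under AZD and under Ento+AZD for both lists. What set replicate 2 apart was not tested.

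The counts of the other lists also moved with single arrays. Over the omission of each array or replicate number, the B-cell markers had 0 to 4 members higher at an unadjusted p under 0.05, with 0 without replicate number 3, 1 without Ento replicate 1, Ento replicate 3 or DMSO replicate 3, and medians of 0.24 to 0.34. The proximal signalling genes had 0 to 5 higher, with 0 without replicate number 3 and 2 without Ento replicate 1 or DMSO replicate 3, and medians of -0.01 to 0.11. The germinal centre list had 4 to 7 higher, with 4 without DMSO replicate 1, Ento replicate 3, or replicate number 1 or 3, and medians of 0.05 to 0.19. The early genes had 1 to 7 lower, with 1 without replicate number 3, 2 without Ento replicate 2 or DMSO replicate 3, and 7 without replicate number 1. The migration receptors had 2 to 6 higher, with 2 without DMSO replicate 1.

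**Figure D5:**
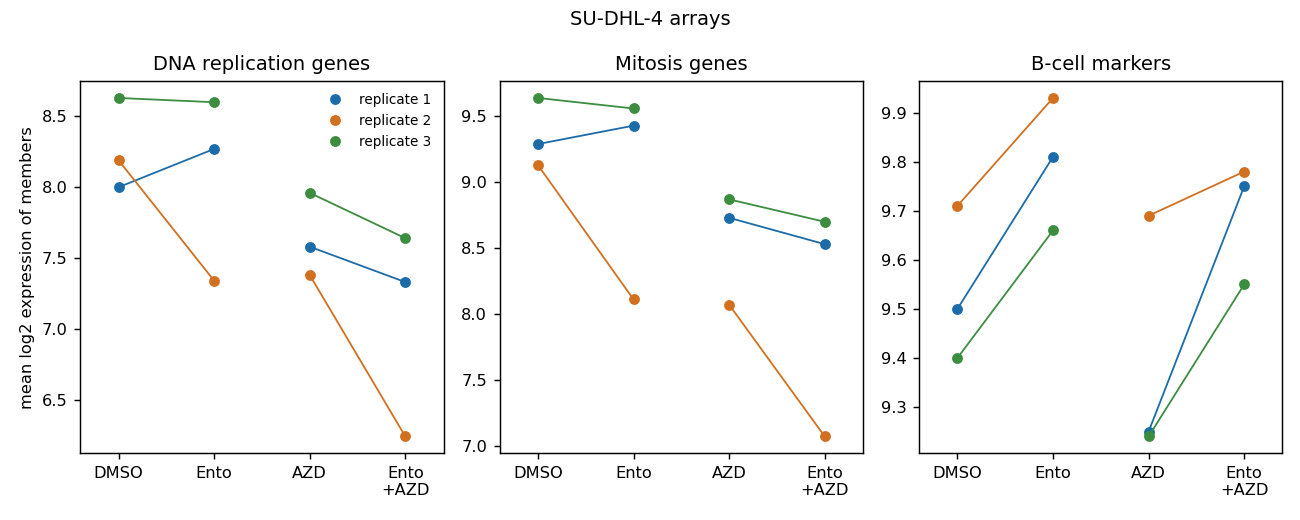
Mean log2 expression of the members (y axis) of the DNA replication list, the mitosis list and the B-cell markers in each SU-DHL-4 array, by treatment (x axis), with lines joining same-numbered arrays. Ento replicate 2 lies at 7.34 for replication and 8.11 for mitosis, below the other Ento and all DMSO arrays, and the B-cell markers are higher under Ento in each of the 3 pairs.

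Interferon-stimulated genes had a median of -0.23, with 2 higher and 3 lower of 25 at an unadjusted p under 0.05, beside 2.3% and 6.29% of all rows. The higher members were the antiviral enzymes OAS1 (0.62) and ISG20 (0.45), and the lower ones included BST2 (-0.46) and IFI27 (-0.38). With array medians subtracted 4 were higher and 1 lower at that p, beside 1852 and 645 of all 25575 rows. After quantile normalization 3 were higher and 2 lower, beside 1167 and 1028. The median was -0.11 under both scalings. This list too was lowest in the replicate 2 pair (-0.33, beside 0.10 and 0.05), and its median was -0.04 without Ento replicate 2, with 4 higher and 1 lower. In DG-75 the same list had a median of 0.56 with 10 of 25 higher at that p, beside 1.2% of all rows. The difference between the lines was not tested for the list.

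Few rows passed the threshold in DG-75 under the same dose and time. There 1 row was called (0.00391%), and 2.81% of rows had an unadjusted p under 0.05. TMPRSS15 measured 2.17, 2.10 and 2.54 under DMSO and 1.86, 2.30 and 2.14 under Ento in DG-75, with overlapping groups. LTB was higher there as well, at 6.48, 6.61 and 6.59 and then 6.94, 7.04 and 7.37 (change 0.56, adjusted p = 1). Its groups did not overlap, and the change was short of the threshold. SLC30A4, called for the average in SU-DHL-4, measured 5.89, 5.48 and 6.16 and then 6.91, 6.71 and 6.95 in DG-75. These groups did not overlap either (change 1.01, adjusted p = 0.525), and its difference between the lines was 0.31 and not called. Of the 22 rows called for that average, 5 had an unadjusted p under 0.05 in DG-75, beside 2.81% of all rows. The difference between the responses of the lines, fitted over all 24 arrays, was called for 2 rows of 25575 (0.00782%). These were TMPRSS15, by 2.24 (SE 0.230, adjusted p = 0.000366), and LINC01781, by 1.42 (SE 0.207, adjusted p = 0.0266). The count was 0 without replicate number 1 or 3, and 1 with no replicate block. For LPP the difference was 1.27 (adjusted p = 0.0582), and for the other 9 called genes the adjusted p was 0.498 or more. For those genes a difference between the lines was not shown, including for BACH2, where it was 1.08 (adjusted p = 0.536).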

How the data were processed

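RNA of SU-DHL-4 and DG-75 cells was hybridised to 24 Clariom D arrays, and the authors deposited 1 table of log2 values made by RMA normalization with limma and mapped to gene symbols with affycoretools. RMA corrects background, equalizes probe distributions between arrays and summarises probes. The log base follows from RMA, and the array annotation build is not given in the sources used here. All per-sample columns were assigned by name, leaving 0 unused, and every row entered the tests. No arrays were identical.

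Changes were computed with limma 3.58.1 under R 4.3.3, using its default empirical Bayes settings. The 12 SU-DHL-4 arrays were fitted with 4 treatments and the replicate number, taken as the batch term that the study's methods name without defining. Same-numbered arrays of different treatments had residual correlations of -0.111 to 0.394 (DMSO with Ento 0.0201 to 0.263) and differently numbered arrays -0.286 to 0.108 (-0.25 to 0.0806), so that the ranges overlap. The difference between lines used 24 arrays with replicate number within line. P-values were adjusted by Benjamini-Hochberg over 25575 rows, and a call required a 2-fold change and an adjusted p under 0.05. Unadjusted p-values are named as such. Gene lists are described by counts and medians without a test of the list.

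Named were all called genes, up to 10 per direction with the smallest p among those changed above 2-fold with 1 sign in 3 pairs, key genes, the 4 members of a list with the smallest p (further members past an unadjusted p under 0.05 are named after their values were seen), up to 5 per direction called for the average, and genes called between lines. Members, lists and tests were chosen with earlier results of these data known. One called gene and some members of the lists are not reported here, and symbols CCL4 and MEF2B were not analysed here. The calculation was tested on simulated data. Alternatives were no replicate number, all 24 or only 6 arrays in the fit, low rows left out, quantile normalization, median subtraction, a prior variance with trend, no fold minimum, limma's treat test, 1 row per symbol, and omission of arrays.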

Additional observations from a re-analysis of the deposited data

Results flagged for a closer look

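The Ento response differed between the lines by the test of the difference itself for 2 genes. The count of calls was 0 without replicate number 1 or 3, and 1 with no replicate block. In SU-DHL-4, TMPRSS15 changed by 2.07, and DG-75 gave -0.17, a difference of 2.24 (limma, adjusted p = 0.000366), with 3 of 3 same-numbered pairs higher in SU-DHL-4. For LINC01781 the change was 1.21, and DG-75 gave -0.21, a difference of 1.42 (adjusted p = 0.0266), also with 3 of 3 pairs higher in SU-DHL-4. Groups of 3 arrays were not examined for outlying values.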

How the results depend on the processing

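With 3 arrays per group the counts of calls moved with most choices, while the changes of the 12 called genes kept their sign wherever they were fitted (TMPRSS15, SPARCL1, DENND1B and LINC01781 were not among the rows kept by the filter on low levels). For Ento against DMSO (13 called) the count was 1 with no replicate block, 25 in 1 fit of all 24 arrays, 7 after quantile normalization, 32 with a prior variance with trend and 4 by the treat test (fold change of 1.2), while leaving out arrays or replicate numbers gave 2 to 7. For the average over both AZD backgrounds (22) it was 10 with no replicate block, 55 without a fold minimum and 14 by treat, and omissions gave 4 to 33. For Ento+AZD against AZD (7) it was 1 with no replicate block, 12 in the fit of all arrays, 15 with trend and 3 by treat, and omissions gave 0 to 22. For the difference between lines (2) it was 1 with no replicate block, 1 by treat and 1 with rows under the median left out (a row other than TMPRSS15 and LINC01781, which that filter removed), and omissions gave 0 to 2. With no replicate block TMPRSS15 had an adjusted p of 0.149, LPP 0.0893 and BACH2 0.219. Changes near 0 turned sign. BTK ranged from -0.06 to 0.06 over the omissions and from 0.02 to 0.14 over the other alternatives, and was -0.03 without replicate 1 and -0.06 without Ento replicate 1. MYC was -0.02 without replicate 1, -0.01 without replicate 3, -0.05 without DMSO replicate 1 and -0.03 without Ento replicate 3. EGR1 ranged from -0.60 to 0.16 over the omissions, with 0.16 without replicate 3 and 0.05 without Ento replicate 3. Signal over background could not be assessed.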
